A study of Mus musculus with 16 samples.

Results

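The values described here are the interaction of ERG and GATA1s in mouse fetal liver at E14.5: per gene, on the log2 scale, the difference ERG/GATA1s minus WT/GATA1s less the difference ERG Tg minus WT. The interaction is 0 where the effects of both alleles add. All genes whose probe set names 1 symbol were members, 19934 genes on 28270 probe sets, and 15181 of them passed a filter on dim signal and were tested. The series holds 16 samples of fetal liver cells from embryos of 4 genotypes at 2 stages, and the 8 E14.5 samples enter the interaction. RNA was extracted from single-cell suspensions after the embryos had been genotyped, and hybridised to expression arrays.

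The groups were ERG/GATA1s (the ERG transgene together with the GATA1s allele), WT/GATA1s (that allele without the transgene), ERG Tg (the transgene alone) and WT (wild type). Each E14.5 group held 1 array labelled female and 1 labelled male, and array values below are given in that order. The labels used here name neither the promoter and species of the transgene nor the strain, the number of copies of the X-linked GATA1s allele in females, and whether embryos were pooled. The p-values therefore measure only the spread between these samples, which may be technical.

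Fetal liver is the main blood-forming organ of the mouse embryo at midgestation, where red cells, megakaryocytes and granulocytes mature among hepatoblasts. GATA1 is a zinc finger factor that red cells and megakaryocytes need, and the GATA1s isoform is made without the first stretch of the protein. ERG, an ETS family factor, acts in blood stem cells and megakaryocytes, and in Down syndrome a gene of that name lies on the chromosome present in excess while GATA1s mutations mark the transient leukaemia of newborns. Whether the response to ERG depends on the GATA1 isoform is the question the interaction addresses.

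The 8 arrays had median log2 signals of 4.80 to 4.86, with a median residual SD of 0.129. Precision is limited by 2 arrays a group and by the WT pair, whose arrays were the least alike, with a mean absolute difference of 0.279 against 0.128 to 0.16 in the other pairs. The ERG/GATA1s array labelled female had Xist, the RNA of the inactive X chromosome, at 4.22 and a mean Y-linked signal of 6.5, on the side of arrays labelled male. The ERG Tg array labelled male had both Xist (10.03) and Y-linked signal (5.27). Both ERG/GATA1s arrays thus carried male markers, so sex and genotype cannot be told apart in that group. The design genes came next: Erg had an interaction of 0.03 ± 0.20 (SE) and Gata1 of -0.02 ± 0.19, and whether their probe sets read the transgene or tell the isoforms apart was not tested. Red cell genes had mean signals of 8.76 to 9.99 and hepatocyte genes of 9.45 to 10.52 in the 8 arrays, whereas the T cell gene Cd3g lay at 3.41 to 3.75, near the level of 3.69 taken as dim.

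Where do both alleles together depart from their sum? In 3 genes the interaction passed limma's test: Nkg7 and Plac8, which ERG lowered on the WT background and raised on the GATA1s background, and Cmah, which ERG raised on the WT background and whose ERG effect on the GATA1s background did not pass. The 3 calls were 0.0198% of the 15181 genes tested, 2 with a positive interaction (0.0132%) and 1 with a negative interaction (0.00659%). At an unadjusted p under 0.05 there were 936 genes, 6.17% of those tested. For the other genes no departure from additivity was detectable with 2 arrays a group.

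Nkg7, a granule membrane protein first described in natural killer cells, had log2 signals of 6.77 and 6.86 in ERG/GATA1s, 5.64 and 5.82 in WT/GATA1s, 4.44 and 4.57 in ERG Tg, and 5.81 and 5.67 in WT. Both ERG/GATA1s arrays were above both WT/GATA1s arrays, and both ERG Tg arrays were below both WT arrays. Its interaction was 2.32 ± 0.16 (95% interval 1.95 to 2.69), a 4.99-fold departure from the sum (adjusted p = 0.0105). The ERG effect was 1.08 on the GATA1s background (adjusted p = 0.0207) and -1.23 on the WT background (adjusted p = 0.00907), while WT/GATA1s lay -0.01 from WT.

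Plac8, a small cysteine-rich protein of myeloid cells, had 8.14 and 8.03 in ERG/GATA1s, 6.86 and 6.99 in WT/GATA1s, 5.76 and 5.62 in ERG Tg, and 6.73 and 6.58 in WT. The groups lay in the same order as for Nkg7 at both ends, with ERG/GATA1s highest, ERG Tg lowest and no overlap between them and the others. The interaction was 2.12 ± 0.16 (95% interval 1.76 to 2.49, 4.36-fold, adjusted p = 0.0105). The ERG effect was 1.16 on the GATA1s background (adjusted p = 0.0207) and -0.96 on the WT background (adjusted p = 0.0152).

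Cmah, the hydroxylase that makes the sialic acid Neu5Gc, had 6.29 and 6.41 in ERG/GATA1s, 5.99 and 6.24 in WT/GATA1s, 8.03 and 7.75 in ERG Tg, and 5.38 and 5.44 in WT. The ERG Tg arrays stood above all others by more than the spread of any pair. The interaction was -2.24 ± 0.19 (95% interval -2.69 to -1.80, adjusted p = 0.0189), so both alleles together gave 0.94 over WT where the single effects sum to 3.19. The ERG effect was 2.48 on the WT background (adjusted p = 0.00213) and 0.23 on the GATA1s background (adjusted p = 0.611). The 3 calls held without either WT array and were lost without any 1 of the other 6 arrays, with adjusted p of up to 0.122 for Nkg7 and Plac8 and 0.198 for Cmah. In those refits the values stayed between 2.23 and 2.41 for Nkg7, 2.05 and 2.20 for Plac8, and -2.39 and -2.11 for Cmah. The Cmah call was also lost with labelled sex as a block (adjusted p = 0.0514) and with Y-linked level as a covariate (adjusted p = 0.0603). The number of calls was 1 without the ERG Tg array labelled female and 0 without the ERG Tg array labelled male or any ERG/GATA1s or WT/GATA1s array. Of the WT arrays, leaving out the array labelled female gave 5 calls and leaving out the array labelled male gave 425. Without both arrays whose sex markers oppose or mix with their label (chosen after seeing the data) it was 0 (adjusted p = 0.997 for each of the 3 genes), with values of 2.43 for Nkg7, 2.00 for Plac8 and -2.33 for Cmah.

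**Figure D1:**
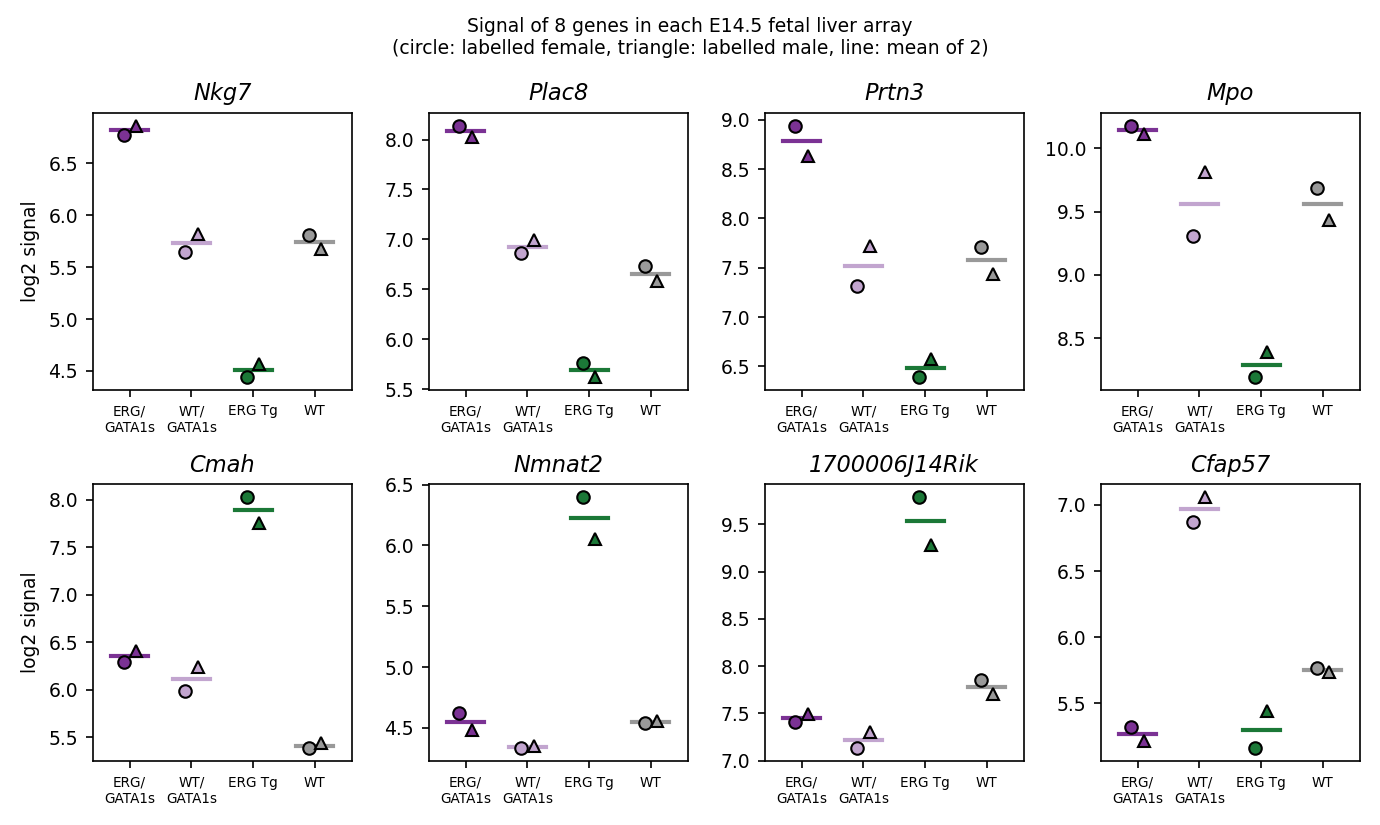
Log2 signal (y axis) of 8 genes in each E14.5 array, by genotype (x axis), with circles for arrays labelled female, triangles for arrays labelled male and lines for group means. In the upper row ERG/GATA1s lies highest and ERG Tg lowest (for Nkg7 6.77 and 6.86 against 4.44 and 4.57), and in the lower row 1 single-allele group stands above the other 3 groups.

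Several of the next genes by p were genes of myeloid granules, with a positive interaction that missed the threshold. Prtn3, the neutrophil serine protease proteinase 3, had 8.94 and 8.63 in ERG/GATA1s, 7.31 and 7.72 in WT/GATA1s, 6.39 and 6.57 in ERG Tg, and 7.71 and 7.44 in WT. Its interaction was 2.36 ± 0.25 (adjusted p = 0.0747), yet the ERG effect passed on both backgrounds in opposite directions, at 1.27 with GATA1s (adjusted p = 0.034) and -1.09 with WT (adjusted p = 0.0451). Serpinb1a, an inhibitor of neutrophil proteases, had 6.88 and 6.62 in ERG/GATA1s, 5.88 and 6.24 in WT/GATA1s, 5.01 and 4.81 in ERG Tg, and 6.21 and 5.93 in WT, with an interaction of 1.85 ± 0.24 (adjusted p = 0.138). In both genes ERG/GATA1s was the highest group, ERG Tg the lowest, and WT/GATA1s overlapped with WT. Of the 30 genes in which ERG passed on both backgrounds, Nkg7, Plac8 and Prtn3 were the 3 with opposite directions.

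Granulocyte and monocyte genes had the largest median interaction of the cell type lists. The list was chosen with earlier results of these data known. Of 24 listed genes 23 were tested, with a median interaction of 1.15 against -0.03 over all genes, and 21 of 23 had a value above 0, against 44.2% of all genes. Only Plac8 passed, and 15 of 23 had an unadjusted p under 0.05 with a positive interaction, against 3.1% of all genes. The median ERG effect was 0.35 on the GATA1s background, where Plac8 and Prtn3 rose (34 of all genes rose, 0.224%), and -0.97 on the WT background, where Plac8, Prtn3 and Mpo fell (34 of all genes fell, 0.224%). All 23 genes were lower in ERG Tg than in WT, and 19 of 23 were higher in ERG/GATA1s than in WT/GATA1s. Of all 15181 genes, 7425 had an ERG effect above 0 on the WT background and 7127 on the GATA1s background. The 23 genes were read on the same arrays and are not independent replicates. In bulk RNA, fewer cells of a type and less RNA per cell cannot be told apart.

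In 10 of the 23 genes both ERG Tg arrays lay below both WT arrays and both ERG/GATA1s arrays lay above both WT/GATA1s arrays, a crossing seen in 371 of all genes (2.44%). With arrays left out such a count can only stay or rise, so those refits do not test it. The mean signal of the list was 7.30 and 7.01 in ERG/GATA1s, 6.54 and 7.06 in WT/GATA1s, 5.85 and 6.0 in ERG Tg, and 7.14 and 6.52 in WT. The ERG Tg arrays were the lowest, and the other 3 groups overlapped on this mean. Leaving out 1 array moved the list's median interaction between 0.84 and 1.47, and the number of genes above 0 between 20 and 22.

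Serine proteases of neutrophil granules were among the members with the largest interactions. Ctsg, cathepsin G, had 8.51 and 7.98 in ERG/GATA1s, 6.79 and 7.64 in WT/GATA1s, 6.10 and 6.27 in ERG Tg, and 7.88 and 7.50 in WT, an interaction of 2.53 ± 0.41 (adjusted p = 0.237). Elane, neutrophil elastase, had 9.20 and 8.86 in ERG/GATA1s, 7.66 and 8.39 in WT/GATA1s, 6.56 and 6.85 in ERG Tg, and 8.01 and 8.0 in WT, an interaction of 2.3 ± 0.33 (adjusted p = 0.186). In both genes the ERG/GATA1s arrays were the highest and the ERG Tg arrays the lowest, without overlap with the group each is set against. Prtn3 and Elane are neighbours on chromosome 10 in assembly GRCm38.p6, so they are not separate loci.

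Among other granule and precursor genes, Mpo, the myeloperoxidase of primary granules, had 10.18 and 10.11 in ERG/GATA1s, 9.31 and 9.81 in WT/GATA1s, 8.19 and 8.39 in ERG Tg, and 9.69 and 9.43 in WT. Its interaction was 1.86 ± 0.25 (adjusted p = 0.152), and its fall of 1.27 with ERG on the WT background passed (adjusted p = 0.0275). Ms4a3, a membrane protein of granulocyte and monocyte precursors, had 6.85 and 6.71 in ERG/GATA1s, 5.06 and 5.81 in WT/GATA1s, 4.67 and 4.70 in ERG Tg, and 5.96 and 5.52 in WT, an interaction of 2.40 ± 0.34 (adjusted p = 0.186). Both genes had the order seen for Prtn3. S100a8 and S100a9, which form calprotectin, had interactions of 2.21 and 1.74 with wider errors of 0.50 and 0.55, since their WT arrays lay over 1 log2 unit apart (8.28 and 7.02 for S100a8).

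Of genes known from the later, secondary granules, Ngp had an interaction of 1.30 ± 0.71, Camp of 0.80 ± 0.51, Ltf of 0.79 ± 0.69 and Mmp8 of 0.36 ± 0.60, with adjusted p from 0.923 to 0.974, and ERG effects on the GATA1s background between -0.40 and 0.12. Lcn2, of the same granules, had 1.57 ± 0.61. Whether these values differ from those of the primary granule genes was not tested. The transcription factor Cebpe, which directs that stage, had 6.02 and 6.0 in ERG/GATA1s, 5.53 and 5.79 in WT/GATA1s, 5.34 and 5.32 in ERG Tg, and 5.98 and 5.87 in WT, an interaction of 0.95 ± 0.16 (adjusted p = 0.282). The values of Cebpe crossed without overlap. The exceptions were Cebpa, the factor that starts granulocyte development, at -0.49 ± 0.35 and the neutrophil surface protein Ly6g at -0.45 ± 0.52. Ly6g had 3.74 and 3.48 in ERG/GATA1s, 5.08 and 5.33 in WT/GATA1s, 4.78 and 4.97 in ERG Tg, and 6.68 and 5.36 in WT, and its ERG/GATA1s mean lay below the dim level.

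**Figure D2:**
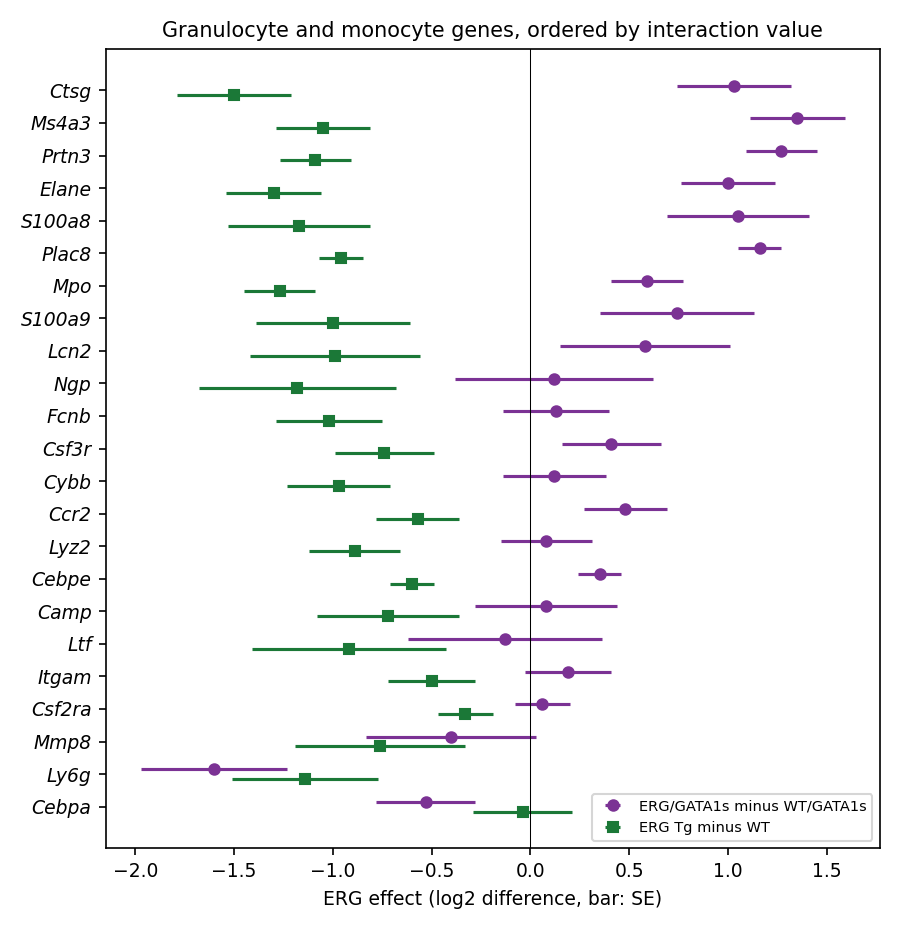
ERG effect on the log2 scale (x axis, bars are SE from the fit) of the 23 granulocyte and monocyte genes tested (y axis), ordered by interaction, on the GATA1s background (circles) and on the WT background (squares). All 23 squares lie below 0 and 19 circles above it, with Ctsg at 1.03 and -1.50 at the top and Ly6g and Cebpa at the bottom.

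The promoters of 5 of these genes are shown because their signals moved together, in the 250 bases before each annotated start (RefSeq, assembly GRCm38.p6, 5′ to 3′ on the gene's strand). The windows are chr7:43436888-43437137 on the plus strand for Nkg7, chr5:100572206-100572455 on the minus strand for Plac8 (the table lists 2 starts, and the window of the first is shown), chr10:79879417-79879666 on the plus strand for Prtn3, chr10:79886062-79886311 on the plus strand for Elane, and chr11:87793534-87793783 on the plus strand for Mpo. Capitals mark matches to AGGAAG, a longer form of the GGAA core read by ETS factors such as ERG, or to its reverse complement. Places with GGAA alone are not marked.
Nkg7: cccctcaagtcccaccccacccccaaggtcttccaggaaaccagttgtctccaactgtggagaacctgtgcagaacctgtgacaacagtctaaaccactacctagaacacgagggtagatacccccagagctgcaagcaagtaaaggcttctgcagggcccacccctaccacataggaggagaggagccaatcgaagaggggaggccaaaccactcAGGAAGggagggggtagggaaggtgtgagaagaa
Plac8: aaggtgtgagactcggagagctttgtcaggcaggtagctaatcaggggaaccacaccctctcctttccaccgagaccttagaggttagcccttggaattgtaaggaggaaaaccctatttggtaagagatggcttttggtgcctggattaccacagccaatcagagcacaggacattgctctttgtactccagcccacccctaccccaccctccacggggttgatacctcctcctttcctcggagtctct
Prtn3: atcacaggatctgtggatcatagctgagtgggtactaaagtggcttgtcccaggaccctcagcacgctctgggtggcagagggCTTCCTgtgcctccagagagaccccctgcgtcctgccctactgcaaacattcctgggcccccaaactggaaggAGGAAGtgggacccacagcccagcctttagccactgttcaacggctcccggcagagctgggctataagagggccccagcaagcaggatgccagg
Elane: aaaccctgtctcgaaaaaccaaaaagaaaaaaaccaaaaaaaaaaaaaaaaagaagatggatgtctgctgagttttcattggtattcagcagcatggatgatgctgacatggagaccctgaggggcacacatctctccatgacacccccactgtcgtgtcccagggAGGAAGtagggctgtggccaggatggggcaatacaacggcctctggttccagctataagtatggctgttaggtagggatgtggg
Mpo: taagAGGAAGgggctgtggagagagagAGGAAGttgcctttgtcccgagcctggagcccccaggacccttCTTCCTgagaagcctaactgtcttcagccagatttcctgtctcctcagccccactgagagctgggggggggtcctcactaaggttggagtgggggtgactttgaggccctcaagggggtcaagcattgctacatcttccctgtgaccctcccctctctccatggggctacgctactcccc

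The letters AGGAAG, on either strand, occurred in 16 of the 22 granulocyte and monocyte promoters in the table (72.7%) and in 29.2% of 27025 promoters of the same length. Nkg7 had 1 match 34 bases before the start, Prtn3 had 2 at 167 and 94, Elane had 1 at 84, and Mpo had 3 at 246, 223 and 180. Plac8 had no match to AGGAAG, though the letters GGAA occur in its window. The letters AGATAA, read by GATA factors, occurred in 4 of 22 (18.2%) against 10.3% of all promoters, and TTGCNNAA, read by C/EBP factors, in 7 of 22 (31.8%) against 9.55%. Among the 9 crossing genes with a promoter, 6 held AGGAAG (66.7%), 2 held AGATAA (22.2%) and 1 held TTGCNNAA (11.1%). None of the 5 windows shown held AGATAA or TTGCNNAA. A match is a run of letters and not a measured site, and a window without a match says nothing of the factor.

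Departures from the sum were sorted by group means into 5 forms set by fixed limits, because only 3 genes passed. A gene took the first form it met: cancelled, reversed, exceeded the sum, changed only with both alleles, or short of the sum. An interaction of at least 1 in size, a limit chosen after the counts were seen, was reached by 122 genes with a positive value (0.804% of those tested) and by 66 with a negative value (0.435%). Of these 188 genes, 34 were reversed (ERG effects of at least 0.5 with opposite signs on the backgrounds), 32 cancelled (a single effect of at least 1, and under 0.5 with both alleles), 20 were short of the sum, 16 differed from WT by at least 1 with both alleles and by under 0.5 with each alone, 13 exceeded a sum of at least 0.5, and 73 met none of these. The reversed genes were 31 positive and 3 negative, and the genes that differed only with both alleles 15 positive and 1 negative. Those counts hold 4 sex-linked genes, Xist among the reversed and 3 Y-linked genes among those that differed only with both alleles. Without them the counts were 31 and 2, and 12 and 1, beside male markers in both ERG/GATA1s arrays. For each form the 5 genes of smallest p were taken, sex-linked genes aside. Single and joint effects share the WT arrays, so their values against WT are not independent of each other.

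Among genes that cancelled, a change of at least 1 with a single allele stood beside a difference from WT under 0.5 with both. Cfap57 and Epx, at -0.48 and -0.49 with both alleles, were close to that limit. Cfap57, a protein of cilia, had 5.32 and 5.22 in ERG/GATA1s, 6.87 and 7.06 in WT/GATA1s, 5.16 and 5.44 in ERG Tg, and 5.77 and 5.74 in WT. It rose by 1.21 in WT/GATA1s over WT (adjusted p = 0.0125) and fell by 1.70 in ERG/GATA1s against WT/GATA1s (adjusted p = 0.0159), an interaction of -1.24 ± 0.18 (adjusted p = 0.186). Akr1d1, a reductase of bile acid synthesis, had 2.95 and 2.91 in ERG/GATA1s, 4.16 and 4.31 in WT/GATA1s, 2.86 and 2.98 in ERG Tg, and 3.03 and 3.09 in WT. The 6 arrays of the other groups lay below the dim level and the gene passed the filter only through WT/GATA1s, so no fold or test is read from it.

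The opposite case was a rise with ERG that the GATA1s background lacked. Nmnat2, an enzyme of NAD synthesis known from axons, had 4.62 and 4.48 in ERG/GATA1s, 4.33 and 4.35 in WT/GATA1s, 6.40 and 6.05 in ERG Tg, and 4.54 and 4.56 in WT. ERG raised it by 1.68 on the WT background (adjusted p = 0.00774) and its interaction was -1.47 ± 0.18 (adjusted p = 0.138). 1700006J14Rik had 7.41 and 7.49 in ERG/GATA1s, 7.13 and 7.30 in WT/GATA1s, 9.79 and 9.28 in ERG Tg, and 7.85 and 7.71 in WT, an interaction of -1.52 ± 0.24 (adjusted p = 0.237). In both genes the ERG Tg arrays were the highest and ERG/GATA1s stayed near WT. Epx, eosinophil peroxidase, cancelled in the other direction: it had 5.65 and 5.45 in ERG/GATA1s, 5.15 and 5.4 in WT/GATA1s, 4.70 and 4.53 in ERG Tg, and 6.22 and 5.86 in WT. Its fall of 1.42 with ERG on the WT background passed (adjusted p = 0.014), and its interaction was 1.70 ± 0.22 (adjusted p = 0.138).

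Short of the sum, beside Cmah, were Dusp10, Aqp8, Cps1 and Fmo1. Dusp10, a phosphatase of the stress kinases, had 7.15 and 7.14 in ERG/GATA1s, 6.54 and 6.68 in WT/GATA1s, 7.66 and 7.34 in ERG Tg, and 5.85 and 6.04 in WT, so both alleles gave 1.20 where the single effects sum to 2.22. Aqp8, a water channel, had 6.30 and 6.21 in ERG/GATA1s, 5.03 and 5.46 in WT/GATA1s, 8.45 and 7.91 in ERG Tg, and 4.70 and 5.50 in WT, an interaction of -2.07 ± 0.40 (adjusted p = 0.384). ERG raised both genes on the WT background, each with adjusted p = 0.00907, and neither passed on the GATA1s background. Cps1, which starts the urea cycle, had 6.12 and 4.96 in ERG/GATA1s, 7.44 and 7.31 in WT/GATA1s, 3.75 and 3.91 in ERG Tg, and 3.73 and 3.81 in WT. GATA1s raised it by 3.61 on the WT background (adjusted p = 0.00558) and by 1.71 on the ERG background (adjusted p = 0.0205). Its interaction was -1.90 ± 0.45 (adjusted p = 0.494). The ERG Tg and WT arrays of Cps1 lay near the dim level of 3.69, where a fall with ERG could hardly be seen. Whether that floor shapes its interaction was not tested. The 3 genes show groups that do not overlap between ERG/GATA1s and WT. Fmo1, a flavin monooxygenase, had an interaction of -1.46 ± 0.37 (adjusted p = 0.548), with no single effect past the test.

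Genes that exceeded the sum included several that were lower. Fn3krp, a kinase that acts on sugar-modified proteins, had 6.87 and 6.35 in ERG/GATA1s, 8.29 and 8.45 in WT/GATA1s, 8.81 and 9.01 in ERG Tg, and 9.40 and 9.32 in WT. It fell by 2.75 with both alleles (adjusted p = 0.00135) where the single effects sum to -1.44, an interaction of -1.31 ± 0.25 (adjusted p = 0.349). Bpgm, which makes the 2,3-bisphosphoglycerate of red cells, had 6.26 and 6.30 in ERG/GATA1s, 8.41 and 8.38 in WT/GATA1s, 7.63 and 7.80 in ERG Tg, and 8.86 and 7.94 in WT, an interaction of -1.43 ± 0.36 (adjusted p = 0.548). Both were lowest in ERG/GATA1s. Endod1, with an endonuclease domain, had an interaction of -1.22 ± 0.27. Among rises, Parm1 had 8.42 and 8.23 in ERG/GATA1s, 6.06 and 6.16 in WT/GATA1s, 6.52 and 6.37 in ERG Tg, and 5.45 and 6.52 in WT, an interaction of 1.76 ± 0.42 (adjusted p = 0.502). Only the ERG/GATA1s arrays stood apart, and the WT arrays differed by more than 1. The small Cajal body RNA Scarna13 had 1.52 ± 0.36 (adjusted p = 0.494).

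Of the genes that differed from WT only with both alleles, the 5 of smallest p, sex-linked genes aside, were Csf2rb2, Ccl2, Csf2rb, Msr1 and Rftn1. Csf2rb2, a receptor subunit for interleukin 3 in mouse, had 6.95 and 6.75 in ERG/GATA1s, 5.78 and 5.79 in WT/GATA1s, 5.51 and 5.39 in ERG Tg, and 5.51 and 5.61 in WT, an interaction of 1.17 ± 0.15 (adjusted p = 0.138). Csf2rb, the subunit shared by the receptors for interleukin 3, interleukin 5 and GM-CSF, had 8.33 and 7.57 in ERG/GATA1s, 6.24 and 6.75 in WT/GATA1s, 5.76 and 5.95 in ERG Tg, and 6.53 and 6.03 in WT, an interaction of 1.88 ± 0.40 (adjusted p = 0.474). The subunits are near copies, and whether their probe sets tell them apart was not tested. Ccl2, a chemokine that draws monocytes, had 6.93 and 6.10 in ERG/GATA1s, 4.12 and 4.44 in WT/GATA1s, 4.52 and 4.35 in ERG Tg, and 4.04 and 4.26 in WT. It rose by 2.24 with ERG on the GATA1s background (adjusted p = 0.0232), against 0.28 on the WT background (adjusted p = 0.772), with an interaction of 1.95 ± 0.36 (adjusted p = 0.349). In these 3 genes the other groups lay within 1 log2 unit of each other, below both ERG/GATA1s arrays. The scavenger receptor Msr1 (1.01 ± 0.24) and the raft protein Rftn1 (1.0 ± 0.26) had the same shape.

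Additive genes were those with both single effects of at least 1 and an interaction under 0.5. Both single effects reached 1 in 25 genes (0.165% of those tested), 18 in the same direction (11 higher, 7 lower) and 7 in opposite directions, and 4 of the 25 were additive. Prkcq, protein kinase C theta, had 8.83 and 8.57 in ERG/GATA1s, 7.25 and 8.01 in WT/GATA1s, 7.90 and 7.41 in ERG Tg, and 6.24 and 6.36 in WT, so both alleles gave 2.40 (adjusted p = 0.00317) where the single effects of 1.33 and 1.36 sum to 2.69. Ctla2a, a cysteine protease inhibitor, gave 2.3 (adjusted p = 0.00547) where they sum to 2.52. Both genes were highest in ERG/GATA1s. Atp10d, a lipid flippase, had single effects of -1.24 with GATA1s and 1.07 with ERG, and -0.46 with both. Tac2, the neurokinin B precursor, was at -2.65 with both (adjusted p = 0.0261) and -2.95 in the sum, but its arrays lay far apart within a group (6.5 and 5.20 in WT/GATA1s) and its interaction had an SE of 0.77.

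**Figure D3:**
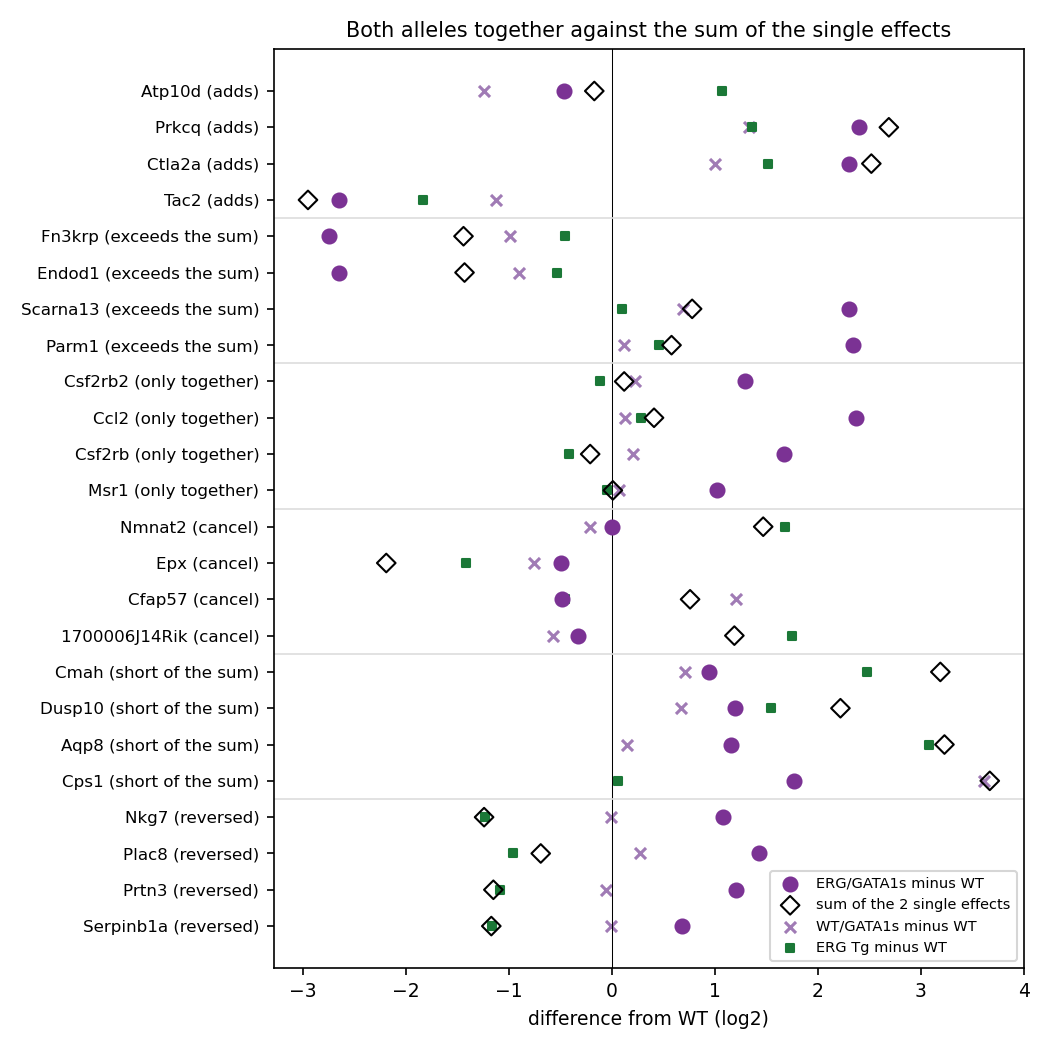
Difference from WT on the log2 scale (x axis) for 24 genes in 6 forms of joint effect (y axis): both alleles (filled circles), the sum of the single effects (open diamonds), WT/GATA1s (crosses) and ERG Tg (squares). Circle and diamond are close in the 4 additive genes and at least 1 apart in the others, with Cmah at 0.94 against a sum of 3.19.

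How alike were the ERG effects on both backgrounds? The comparisons share no array. ERG changed 107 genes on the GATA1s background (0.705%), 34 higher (0.224%) and 73 lower (0.481%), and 133 on the WT background (0.876%), 99 higher (0.652%) and 34 lower (0.224%). Of the 99 genes raised on the WT background, 97 had the same sign on the GATA1s background and 19 passed there, with medians of 0.60 on the GATA1s and 1.08 on the WT background. Of the 34 lowered genes, 24 had the same sign, 8 passed in the same direction and 3 in the opposite one, with medians of -0.36 and -0.91. Conversely, of 73 genes lowered on the GATA1s background 72 had the same sign on the WT background and 8 passed. Their medians were -1.02 on the GATA1s and -0.53 on the WT background. Of the 34 genes raised on the GATA1s background, 29 had the same sign on the WT background. There 19 passed in the same direction and 3 in the opposite one, with medians of 1.23 on the GATA1s and 0.93 on the WT background. In each of these sets the median was smaller on the background not used to choose the genes. Across all 15181 genes, which are not independent replicates, the ERG effects correlated with Pearson's r 0.43 and Spearman's rho 0.31. The count on the GATA1s background was 712 without either WT array, 0 without any ERG Tg or WT/GATA1s array, and 1 and 2 without the ERG/GATA1s arrays labelled female and male, so none of its calls held without each array in turn. WT and ERG Tg arrays enter that count only through the shared spread. The count on the WT background was 3 and 35 without the ERG Tg arrays labelled female and male, 1544 without the WT array labelled male, 74 without either WT/GATA1s array and 42 without either ERG/GATA1s array.

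In 27 genes ERG passed on both backgrounds in the same direction, 19 higher and 8 lower, and 19 of the 27 had an interaction under 0.5 in size. The genes named from this group were chosen after their values were seen. Nrip3, a protein that binds nuclear receptors, had 7.98 and 7.14 in ERG/GATA1s, 4.17 and 3.94 in WT/GATA1s, 8.42 and 7.77 in ERG Tg, and 4.28 and 4.01 in WT, ERG effects of 3.50 ± 0.30 (adjusted p = 0.0204) and 3.95 ± 0.30 (adjusted p = 0.00774). Gata2, the GATA factor of stem cells and early progenitors, had 8.68 and 8.43 in ERG/GATA1s, 6.31 and 6.84 in WT/GATA1s, 8.79 and 8.30 in ERG Tg, and 6.05 and 6.31 in WT, ERG effects of 1.98 (adjusted p = 0.0232) and 2.37 (adjusted p = 0.00922). The groups with ERG did not overlap with those without it in either gene. The interaction was -0.45 ± 0.42 for Nrip3 and -0.39 ± 0.32 for Gata2 (95% interval -1.12 to 0.35).

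Of the 19 raised on both, 18 had the smaller value on the GATA1s background. Over all genes 44.2% had an interaction above 0. The 19 genes were read on the same 8 arrays and are not independent replicates. Gem, a small GTPase, had 6.76 and 6.10 in ERG/GATA1s, 4.37 and 4.28 in WT/GATA1s, 7.90 and 6.99 in ERG Tg, and 3.81 and 4.13 in WT, ERG effects of 2.10 and 3.48 and an interaction of -1.37 ± 0.44 (adjusted p = 0.652). The integrin subunit Itgb7 had 6.34 and 5.99 in ERG/GATA1s, 4.71 and 4.69 in WT/GATA1s, 7.27 and 6.92 in ERG Tg, and 4.71 and 4.68 in WT, and an interaction of -0.94 ± 0.22 (adjusted p = 0.494). In both genes ERG/GATA1s lay between ERG Tg and the groups without ERG. Fermt3, the integrin activator kindlin-3 of blood cells, rose by 1.01 with GATA1s and by 1.53 with WT. Equal effects were seen for Ptpn7, a tyrosine phosphatase of blood cells, at 0.99 and 1.0 (interaction -0.01 ± 0.15), and for Cd82, a tetraspanin, which fell by 1.47 on the GATA1s background and by 1.52 on the WT background (interaction 0.04 ± 0.33). The glucose transporter Slc2a4 fell by 1.39 and 1.17 in the same order.

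**Figure D4:**
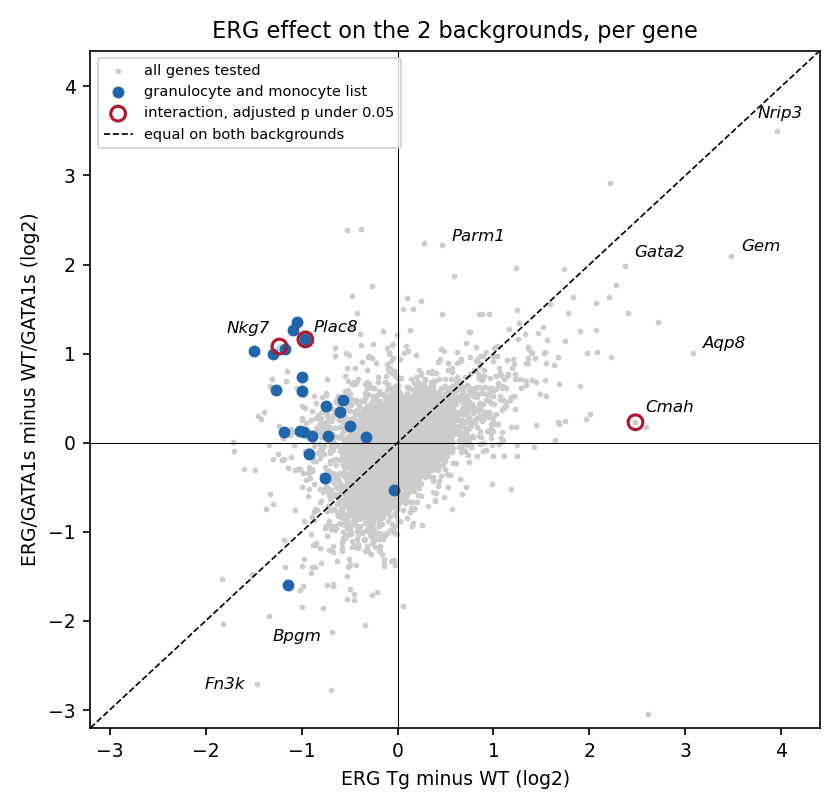
ERG effect per gene on the log2 scale on the GATA1s background (y axis) against the WT background (x axis) for 15181 genes (grey), with granulocyte and monocyte genes (blue), the 3 genes whose interaction passed (red rings) and the line of equal effects (dashed). Nrip3 and Gata2 lie near the line, most blue points lie at negative x with y above 0, and Cmah lies at 2.48 on x and 0.23 on y.

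The GATA1s effects were compared in the same way, again with no shared array. Xist was 4.22 and 4.19 in ERG/GATA1s and 10.65 and 10.03 in ERG Tg, so sex and GATA1s cannot be told apart on the ERG background. On the WT background Xist was 10.53 and 3.97 in WT/GATA1s and 11.52 and 3.94 in WT. GATA1s changed 1263 genes on the ERG background (8.32%), 504 higher (3.32%) and 759 lower (5%), and 69 on the WT background (0.455%), 43 higher (0.283%) and 26 lower (0.171%). Of the 43 genes raised on the WT background 42 had the same sign and 34 passed on the ERG background (medians 1.24 on the ERG and 1.39 on the WT background). All 26 lowered genes had the same sign and 24 passed (medians -1.15 and -0.99), and the effects correlated across genes with r 0.65 and rho 0.60. The count on the ERG background was 68 and 126 without the ERG Tg arrays labelled female and male, 238 and 107 without the ERG/GATA1s arrays, and 2838 without either WT array. The count on the WT background was 5 and 39 without the WT/GATA1s arrays labelled male and female, 43 and 2879 without the WT arrays labelled female and male, 25 without either ERG Tg array and 21 without either ERG/GATA1s array.

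Of 27 tested megakaryocyte and platelet genes, 22 passed as higher with GATA1s on the ERG background (all genes 3.32%) and 3 on the WT background (all genes 0.283%). The median GATA1s effects were 1.24 and 0.98. At an unadjusted p under 0.05, 23 were higher on the ERG background and 22 on the WT background. A GATA1s effect above 0 was seen in 27 and 26, against 6873 and 7098 of all 15181 genes. The median ERG effect was 0.30 on the GATA1s background and -0.27 on the WT background, and the median interaction was 0.54, with 21 of 27 above 0, 10 positive and 1 negative at an unadjusted p under 0.05 (3.1% and 3.06% of all genes), and 0 past the test. That median was 0.32 with Y-linked level as a covariate and 0.30 without the WT/GATA1s array labelled female. Rgs18, a regulator of platelet receptors, had 9.02 and 9.23 in ERG/GATA1s, 8.59 and 9.05 in WT/GATA1s, 6.0 and 6.61 in ERG Tg, and 8.04 and 7.48 in WT, an interaction of 1.76 ± 0.37 (adjusted p = 0.474). Itgb3, the integrin subunit that binds fibrinogen, had 9.51 and 9.32 in ERG/GATA1s, 8.93 and 9.53 in WT/GATA1s, 6.51 and 7.04 in ERG Tg, and 8.01 and 8.0 in WT, an interaction of 1.41 ± 0.32 (adjusted p = 0.481).

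In both genes ERG Tg was the lowest group, while ERG/GATA1s and WT/GATA1s were close. The granule chemokine Pf4 (1.17 ± 0.34) and the lipoxygenase Alox12 (1.27 ± 0.39) had the same order. Other platelet genes were nearly additive: the integrin subunit Itga2b had ERG effects of 0.64 and 0.59, and the surface receptor Treml1 of 0.63 and 0.68, with interactions of 0.05 ± 0.30 and -0.05 ± 0.27. Itga2b had 9.0 and 8.78 in ERG/GATA1s, 7.95 and 8.54 in WT/GATA1s, 7.80 and 7.47 in ERG Tg, and 7.19 and 6.90 in WT. Its mean was higher with either allele than in WT and highest with both.

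Red cell genes had their lowest mean signal with both alleles. None of 24 erythroid genes passed for the interaction, which had a median of -0.32, 21 below 0 and 5 negative at an unadjusted p under 0.05 (3.06% of all genes). The mean signal of the list was 9.04 and 8.76 in ERG/GATA1s, 9.50 and 9.39 in WT/GATA1s, 9.58 and 9.64 in ERG Tg, and 9.99 and 9.65 in WT. Only the ERG/GATA1s arrays stood below the rest. ERG lowered 3 of the 24 on the GATA1s background (Bpgm, Cldn13 and Rhd; all genes 0.481%) and 0 on the WT background, where 5 were lower at an unadjusted p under 0.05 (5.49% of all genes). Cldn13, a claudin of red cell precursors in mouse, had 8.46 and 8.42 in ERG/GATA1s, 9.71 and 9.45 in WT/GATA1s, 9.75 and 9.84 in ERG Tg, and 10.29 and 10.12 in WT, an interaction of -0.73 ± 0.17 (adjusted p = 0.494). The blood group protein Rhd had -0.53 ± 0.21 and the water channel Aqp1 -0.60 ± 0.16. The list's median was -0.11 without the WT array labelled male, -0.12 without the ERG/GATA1s array labelled male and -0.21 without the female-labelled WT/GATA1s array, and -0.48 without the female-labelled WT array.

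The haem synthesis list had a median interaction of -0.40 over 10 genes, 8 below 0 and 0 past the test. At an unadjusted p under 0.05, 2 were negative, against 3.06% of all genes. Uros, the uroporphyrinogen III synthase, had 7.57 and 7.22 in ERG/GATA1s, 8.43 and 8.35 in WT/GATA1s, 8.40 and 8.50 in ERG Tg, and 8.95 and 8.94 in WT. It was lowest with both alleles and fell by 1.0 with ERG on the GATA1s background (adjusted p = 0.0254). On the WT background ERG changed it by -0.49 (adjusted p = 0.156), and its interaction was -0.50 ± 0.18 (adjusted p = 0.732). Alas2, the first enzyme of the pathway in red cells, had an interaction of -0.60 ± 0.29. The embryonic globins Hba-x, Hbb-y and Hbb-bh1 had interactions of 0.21, 0.10 and 0.09, each smaller than its SE.

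Mast cell, basophil and eosinophil genes had a median interaction of 0.89 over 10 tested genes, 7 above 0 and 0 past the test (5 positive and 1 negative at an unadjusted p under 0.05, against 3.1% and 3.06% of all genes). Only 10 of 18 measured genes passed the filter on dim signal. With all 18 the median was 0.13, and it was 0.60 without the WT array labelled female. The granule genes Ear6 (1.60 ± 0.75), Cpa3 (1.31 ± 0.47) and Epx were highest in WT, whereas Alox5, which starts leukotriene synthesis, had 6.98 and 7.14 in ERG/GATA1s, 5.70 and 6.5 in WT/GATA1s, 7.60 and 7.57 in ERG Tg, and 5.62 and 5.10 in WT, an interaction of -1.27 ± 0.37 (adjusted p = 0.618). Alox5 was higher in the groups with ERG. Its partner Alox5ap had 7.91 and 8.09 in ERG/GATA1s, 7.26 and 7.61 in WT/GATA1s, 5.93 and 6.2 in ERG Tg, and 6.91 and 6.70 in WT. Alox5ap was higher with ERG on the GATA1s background and lower with ERG on the WT background. Its interaction was 1.30 ± 0.23 (adjusted p = 0.282).

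The stem cell genes were mixed. Stem cell transcription factors had a median interaction of -0.04 over 19 genes, from Cbfa2t3 (-0.71 ± 0.21), a corepressor that partners TAL1, to Spi1 (0.92 ± 0.34), the myeloid factor PU.1, which had 7.77 and 7.64 in ERG/GATA1s, 6.92 and 7.72 in WT/GATA1s, 6.56 and 6.86 in ERG Tg, and 7.26 and 7.23 in WT. Spi1 was lowest in ERG Tg, as the granule genes were, and its adjusted p was 0.732. Meis1 and Fli1 had 0.69 ± 0.27 and 0.60 ± 0.21. Stem and progenitor surface and cytokine genes had a median of 0.25 over 19 genes, with Cd34 at 0.91 ± 0.21 (adjusted p = 0.494). None passed in either list, with 4 positive and 2 negative, and 5 positive and 1 negative, at an unadjusted p under 0.05 (3.1% positive and 3.06% negative over all genes).

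Of 17 immediate early and stress genes, 7 rose with GATA1s on the ERG background (all genes 3.32%) and 6 on the WT background (all genes 0.283%), and 16 and 14 had a GATA1s effect above 0. Their median GATA1s effect was 0.88 on the ERG background and 0.97 on the WT background, and their median interaction -0.02. Fosb had 8.23 and 9.05 in ERG/GATA1s, 8.10 and 8.36 in WT/GATA1s, 4.57 and 4.62 in ERG Tg, and 4.99 and 4.85 in WT. Both groups with GATA1s stood apart from both without it, with an interaction of 0.73 ± 0.34 (adjusted p = 0.852). Such genes also respond to cell handling, and a part of handling in these values was not tested.

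Hepatocyte genes had a median interaction of -0.33, with 19 of 22 below 0 and 0 past the test. At an unadjusted p under 0.05, 1 was negative, against 3.06% of all genes. Their mean signal was 10.15 and 9.82 in ERG/GATA1s, 10.41 and 10.52 in WT/GATA1s, 9.63 and 9.81 in ERG Tg, and 9.45 and 10.22 in WT. The WT arrays lay further apart than any other pair, and the median was 0.12 without their array labelled female and -0.74 without their array labelled male, so the sign turned without the WT array labelled female. For the remaining lists the median interactions were 0.24 for chemokines, 0.16 for macrophage genes, 0.10 for leukotriene and prostanoid enzymes, 0.09 for interferon response, 0.06 for endothelial, 0.05 for lymphoid, -0.04 for ATF4 targets, -0.05 for p53 targets, -0.08 for cell cycle and -0.22 for stellate and mesenchymal genes, with no member past the test for the interaction.

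**Figure D5:**
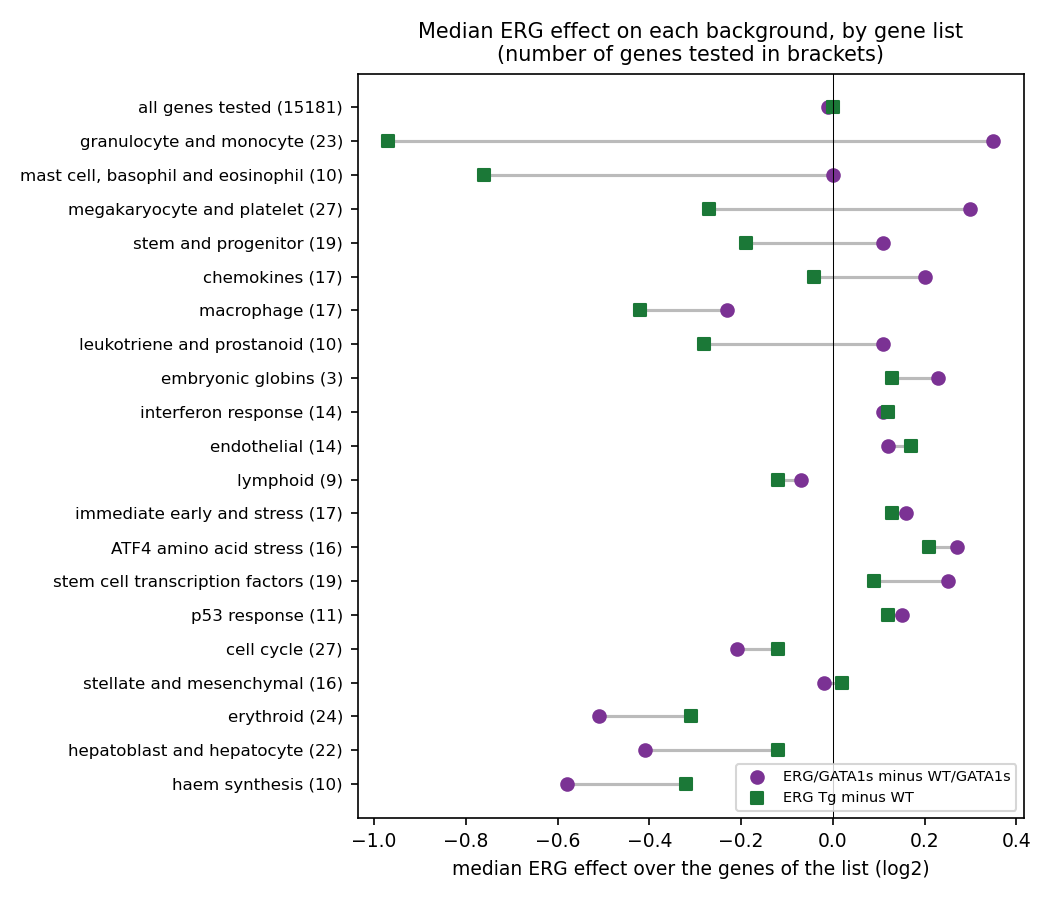
Median ERG effect on the log2 scale (x axis) over the tested genes of each list (y axis, number tested in brackets) on the GATA1s background (circles) and the WT background (squares), ordered by the median interaction. The granulocyte and monocyte medians are 0.35 and -0.97, the erythroid medians -0.51 and -0.31, and the medians of all genes lie at -0.01 and 0.00.

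At E12.5 the same contrast was taken from a fit of all 16 arrays with labelled sex as a term, in which 19 genes passed at E14.5 (7 of them in the granulocyte and monocyte list) and 0 at E12.5, with 910 at an unadjusted p under 0.05. The difference between the stages passed in 0 genes (882 at an unadjusted p under 0.05). The granulocyte and monocyte median was 1.15 at E14.5 and 0.21 at E12.5, with 21 and 20 of 23 genes above 0. Without the 5 arrays whose Xist level opposes the labelled sex, and with no sex term (chosen after seeing the data), 0 genes passed at either stage (487 at E14.5 and 521 at E12.5 at an unadjusted p under 0.05). In that fit the median was 1.09 at E14.5 and 0.65 at E12.5, with 21 and 22 of 23 genes above 0. At E12.5 those arrays were the ERG/GATA1s and WT/GATA1s arrays labelled male (Xist 9.51 and 9.83, Eif2s3y 3.75 and 3.61) and the WT array labelled male (Xist 9.35, Eif2s3y 5.15). Both ERG/GATA1s arrays thus carried female markers at E12.5 and male markers at E14.5, so stage and sex cannot be told apart in that group. Among genes with a large interaction at E14.5, Plac8 had 2.12 ± 0.21 at E14.5 and 0.04 ± 0.21 at E12.5, Prtn3 2.36 ± 0.26 and 0.12 ± 0.26, Mpo 1.86 ± 0.23 and 0.11 ± 0.23, and Cmah -2.24 ± 0.27 and -0.94 ± 0.27. Other members of the granulocyte and monocyte list had values at E12.5 close to or above those at E14.5: Ltf had 0.78 ± 0.52 at E14.5 and 1.03 ± 0.52 at E12.5, Camp 0.80 ± 0.47 and 0.83 ± 0.47, and Ly6g -0.45 ± 0.45 and 1.72 ± 0.45.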

How the data were processed

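The authors deposited log2 signals made with RMA, a background correction, normalization and summary of array probes, per the submitters' processing notes. RNA was labelled with a whole-transcript biotin kit, per the labels' protocols. No source used here names the genome build of the array design. Of 28270 probe sets, 21780 name 1 symbol, 1617 several and 4873 none. The brightest probe set was kept per symbol, and genes were tested where at least 2 of the 8 arrays exceeded 3.69, the 30th percentile of the E14.5 signals. limma 3.58.1 in R 4.3.3 was fitted with 1 mean per genotype (4 residual degrees of freedom), two-sided, with Benjamini-Hochberg adjustment over 15181 genes and a threshold of 0.05. Errors after ± are SE of the fit. Named genes were those past the threshold, else the 5 of smallest p in a direction, up to 4 members of each list with the largest interaction, and examples of each form of joint effect; other genes were chosen after their values were seen. The members and lists were chosen with earlier results of these data known. The fit was tested on simulated data in which each gene had the same spread in every group. The measured WT pair was wider than the other pairs, and the simulation does not cover that case. Labelled sex was checked as a pairing: differences between the arrays of a group correlated between groups at -0.16 to 0.25, so arrays were not paired. Alternatives covered the filter, normalization, sex, the arrays used, weights, moderation and probe sets.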

Additional observations from a re-analysis of the deposited data

Results flagged for a closer look

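In 3 genes the ERG effect differed between the GATA1s and the WT background by limma's test of the difference itself. The difference was 2.32 on the log2 scale for Nkg7 and 2.12 for Plac8, each with the ERG effect above 0 on the GATA1s background and below 0 on the WT background. It was -2.24 for Cmah, with both ERG effects above 0. By labelled sex the interaction was 2.5 and 2.14 for Nkg7, 2.25 and 2.00 for Plac8, and -2.35 and -2.14 for Cmah, for arrays labelled female and male in that order. The ERG/GATA1s array labelled female carried male markers. The ERG Tg array labelled male had both Xist and Y-linked signal, so neither value is an interaction within 1 sex.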

How the results depend on the processing

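The 3 interaction calls became 19 with all 16 arrays and a sex term, 12 with all 16 and no sex term, 5 with trend and robust moderation, and 0 without both arrays whose sex markers oppose or mix with their label (chosen after seeing the data); leaving out 1 array gave 0 to 425. Labelled sex as a replicate block gave 2 interaction calls. ERG calls on the GATA1s background (107) were 64 with no filter, 180 with Y-linked level as a covariate, 265 and 200 with all 16 arrays with and without a sex term, 553 with array weights, 224 with the 2 groups alone and 0 without both arrays, and 0 to 712 leaving out 1 array. ERG calls on the WT background (133) were 285 and 250 with all 16 arrays, 21 with array weights, 0 with the 2 groups alone and 3 without both arrays, and 3 to 1544 leaving out 1. GATA1s calls on the ERG background (1263) were 709 with the Y-linked covariate, 3447 with array weights, 3098 with the 2 groups alone and 0 without both arrays, and 68 to 2838 leaving out 1. GATA1s calls on the WT background (69) were 179 with the Y-linked covariate, 193 and 132 with all 16 arrays, 21 with array weights, 6 with the 2 groups alone and 6 without both arrays, and 5 to 2879 leaving out 1. The cause of these shifts was not tested, and fewer arrays leave fewer degrees of freedom. The granulocyte and monocyte median was 1.10 to 1.15 in the settings with all 8 E14.5 arrays and 0.84 to 1.47 leaving out 1. Over the named genes and settings, 2009 values kept direction and side of the threshold, 48 passed where they had not, and 23 no longer passed. In 33 the sign differed from the main fit, a value of 0 counted as different, and neither fit passed. Past the threshold, 0 turned sign.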

Other observations

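With all 16 arrays and labelled sex as a term, the E14.5 interaction also passed for Clec5a and Tyrobp, a myeloid receptor and its signalling adaptor, and for Paqr4 and Slc24a5. These were named after their values were seen.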
